A study of Mus musculus with 8 samples.

Results

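Lysosome genes outside sphingolipid breakdown were examined in mouse fat cell cultures: 34 genes taken by name from the 22962 genes of the table, namely membrane proteins, proteases, other hydrolases, lipid handling proteins, proton pump subunits and the transcription factors of the TFEB family. All 34 were found and all 34 were tested. The cultures came from the stromal vascular fraction of gonadal fat of wild-type mice (labelled WT), the cells left when floating adipocytes are removed, and had been differentiated into adipocytes. One group of 4 libraries received the solvent DMSO and the other group of 4 received DoxSa, on day 6. DoxSa is not spelled out in the labels; the title of the series names 1-deoxysphingolipids, which lack the hydroxyl group that usual sphingolipid breakdown needs. Age, sex and dose are not stated, and neither is whether separate cultures or animals stand behind the libraries. A p-value therefore measures only how these libraries spread, which may be technical.

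Lysosomes are acidic compartments in which cells degrade proteins, sugars and lipids brought in by endocytosis, phagocytosis or autophagy. Their soluble enzymes are made in the secretory pathway and sorted by mannose 6-phosphate tags, their membrane is lined by heavily glycosylated proteins, and a vacuolar proton pump keeps them acidic. The transcription factors TFEB, TFE3 and MITF bind a short palindromic site found in the promoters of many lysosome genes, and phosphorylation at the lysosome surface holds them in the cytosol. In fat, macrophages are rich in lysosomes and take up lipid from dying adipocytes.

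Of the 34 lysosome genes, 4 rose in DoxSa and 0 fell: Gpnmb, Ctss, Ctsl and Ctsz, a membrane glycoprotein and 3 cysteine cathepsins. The changes were small, from 12.9% for Ctsz to 37.4% for Gpnmb on the FPKM + 1 scale, where FPKM is read number divided by gene length and library size. The call rests on limma applied to log2(FPKM + 1), with a Benjamini-Hochberg adjusted p under 0.05 over all 12060 tested genes. The 4 genes make 11.8% of the 34, where 3.88% of all tested genes were called higher (468 genes) and 2.02% lower (244 genes, or 384 higher and 316 lower after quantile normalization). The shares over all tested genes were not matched for level, and 17 of the 34 ranked in the top 10% by mean FPKM. In 13 of the 34 every DoxSa library lay above every DMSO library (38.2%, against 7.80% of all tested genes), and in 0 every DoxSa library lay below (against 4.71%). The counts of groups apart used the deposited FPKM without further scaling and were not repeated under other settings. Some margins were narrow, such as 246.8 FPKM in DMSO 1 beside 247.2 FPKM in DoxSa 1 for Ctsz. The log2 fold change was above 0 for 31 of the 34 (91.2%, against 56.7% of tested genes), with a median of 0.09 beside 0.01 for all tested genes. It was above 0 for 28 to 32 genes without 1 library and for 28 to 31 under the other settings. The median was then 0.08 to 0.10 and 0.06 to 0.09. With the 4 called genes, the 9 others with groups apart were Ctsd, Lamp1, Gusb, Ctsb, Ctsc, Cd63, Scarb2, Lamp2 and Lipa, with log2 fold changes between 0.07 and 0.14. When low genes were kept in the test, 2 of the 34 were called, Gpnmb and Ctsl.

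**Figure D1:**
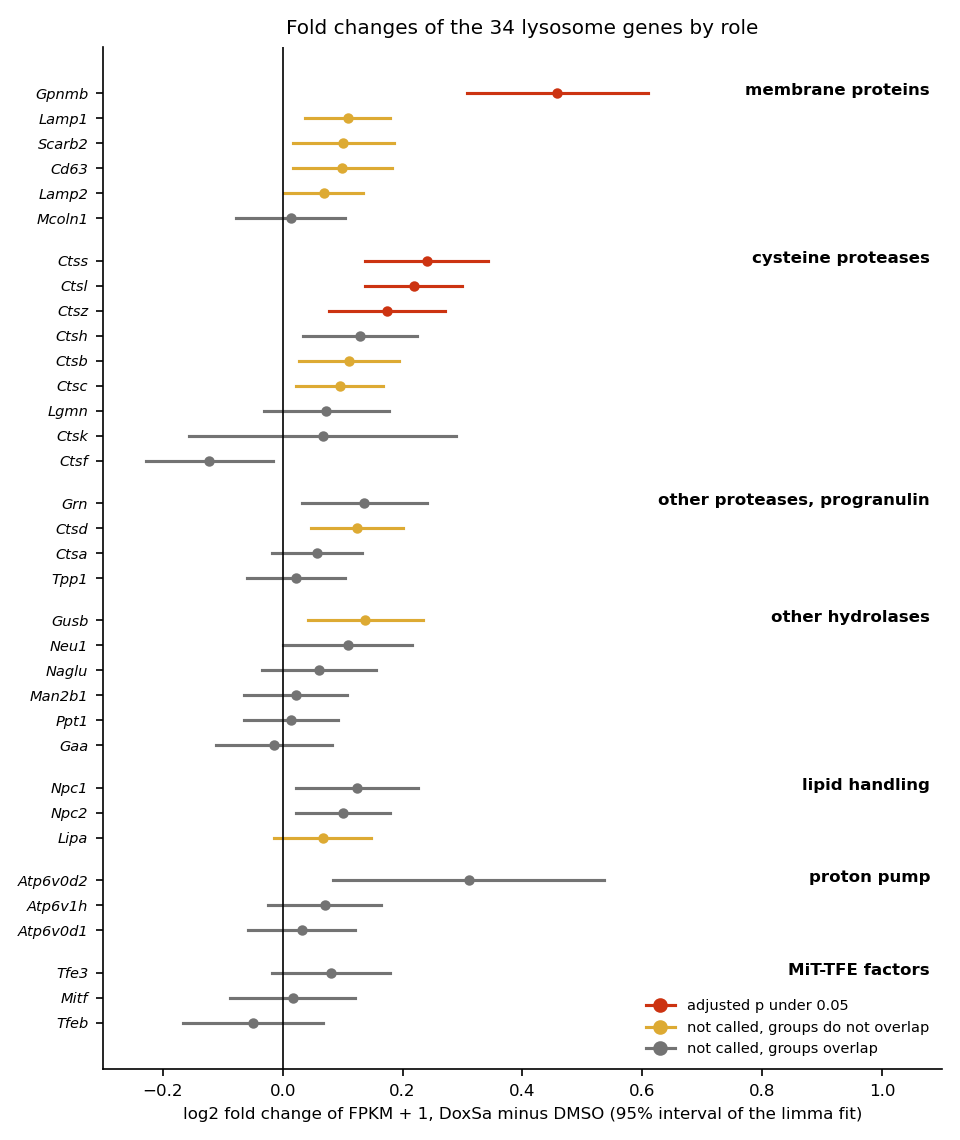
Log2 fold change of FPKM + 1 (DoxSa minus DMSO, x axis) for the 34 genes, ordered by role and then by size, with points for the estimate and lines for the 95% interval of the limma fit (n = 4 libraries per group). The 4 genes in red passed the test, the 9 in yellow had groups that did not overlap without passing it, and the estimates of Ctsf, Tfeb and Gaa lie below 0.

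The recovered library totals were 39213008 to 41365861 reads, and each of the 34 genes had at least 368 reads in every library. The labels call the cells mature adipocytes, and adipocyte genes were high: Fabp4, a fatty acid carrier, measured 8698 ± 203 FPKM with DMSO and 8852 ± 293 FPKM with DoxSa (SD, n = 4), and of 12 adipocyte markers 0 rose and 1 fell, the adipokine gene Retn. Of the 12 markers, 10 had a log2 fold change below 0, with a median of -0.07 over the list. At an unadjusted p under 0.05 (limma) 3 were lower and 0 higher, where 7.24% of all tested genes were lower. In 2 every DoxSa library lay below every DMSO library. The summed level of the 12 overlapped between groups, 12129 to 12496 FPKM with DMSO and 12105 to 12764 FPKM with DoxSa. Macrophage genes were also high, led by Lyz2, which encodes lysozyme, at 4631 ± 329.7 FPKM with DMSO and 5051 ± 227 FPKM with DoxSa. Of 18 tested macrophage markers 5 rose (Cd14, Fcgr1, Ptprc, Aif1 and Ms4a7), 27.8% beside the 3.88% of all tested genes, with log2 fold changes over the list from 0.00 for Csf1r to 0.36 for Cd14. All 18 had a log2 fold change above 0 (16 of 18 under each of the 3 further scalings), with a median of 0.11 beside 0.09 for the 34 genes, and 9 of 18 were higher at an unadjusted p under 0.05, as were 18 of the 34 genes and 12.6% of all tested genes. The log2 ratio of the group means of the summed level was 0.11 for the macrophage markers and 0.12 for the 34 genes; the part of the macrophage signal in the pattern of the 34 genes was not tested. Cd14 was called whichever library was left out, and each of the other 4 lost its call for at least 4 of the 8 libraries. The summed level of the 20 macrophage markers was 7131 to 8180.3 FPKM with DMSO and 7913 to 8439 FPKM with DoxSa, so the groups overlapped. No macrophage marker was at 0, and 2 were below the minimum of 0.5 FPKM. Of 7 tested osteoclast-type markers 1 rose, the integrin gene Itgb3. Of 10 tested fibroblast and progenitor markers 1 rose (Cd55) and 1 fell (Pdgfrb), and their sums overlapped, 3357 to 3714 FPKM with DMSO beside 3318 to 3738 FPKM with DoxSa. The sums of 2 further lists were low and did not overlap: mesothelial markers, nearly all Krt19, summed to 16.8 to 17.3 FPKM with DMSO and 11.6 to 16.2 FPKM with DoxSa, and endothelial markers to 1.59 to 1.99 FPKM and 2.15 to 2.36 FPKM. In each of these lists 1 marker reached the minimum for testing, and it was not called. Summed levels were at most 0.298 FPKM for T, B and NK cell markers. In such bulk cultures more cells of a type and more RNA per cell cannot be told apart.

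The 34 genes covered a wide span of levels. Ctsd was the highest, at 2029 ± 40.2 FPKM with DMSO and 2211 ± 35.1 FPKM with DoxSa, and Tfeb the lowest, at 1.34 ± 0.121 FPKM and 1.25 ± 0.0582 FPKM. A mean over 100 FPKM was found for 12 genes, 19 lay between 10 and 100 FPKM, and 3 lay under 10 FPKM, namely Atp6v0d2, Mitf and Tfeb. Of the 34, 17 ranked in the top 10% of tested genes by mean FPKM, and Ctsd, Ctsb and Lamp1 in the top 1%. In sum the 34 genes took 1.65% to 1.76% of all FPKM in DMSO libraries and 1.80% to 1.88% in DoxSa libraries. At the top, Ctsd, Ctsb and Lamp1 were apart from each other in all libraries. Below them neighbours overlapped: Lgmn, Ctss, Grn and Npc2 all lay between 360.2 and 475 FPKM.

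**Figure D2:**
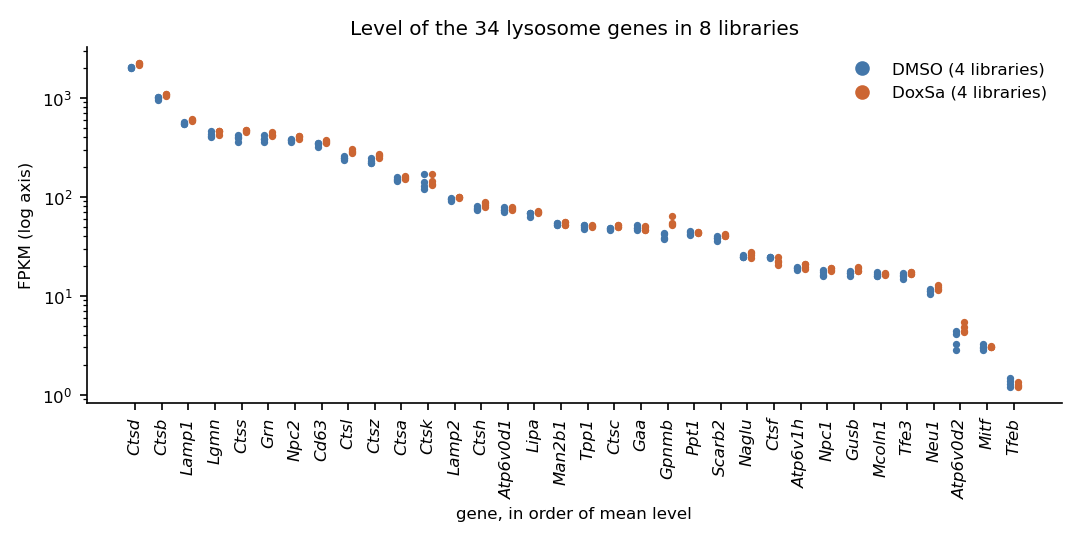
FPKM (log axis) of each of the 34 genes in 8 libraries, ordered by mean level, with DMSO in blue and DoxSa in orange. Means run from 2029 FPKM with DMSO for Ctsd down to 1.34 FPKM for Tfeb, and the shift between treatments is small beside the span between genes.

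Cysteine proteases of the cathepsin family are the main protein-cutting enzymes of the lysosome. Of the 9 cysteine proteases examined, which include legumain (Lgmn) beside the cathepsins, 3 rose, 0 fell and 6 did not pass the test. Ctsl (Entrez 13039), which encodes cathepsin L, a broad endopeptidase, measured 258, 247, 237 and 249 FPKM in DMSO 1 to 4 and 290.2, 301, 280.2 and 281 FPKM in DoxSa 1 to 4. The groups did not overlap, and the log2 fold change was 0.22 ± 0.04 (SE, adjusted p = 0.00687). Ctss (Entrez 13040), which encodes cathepsin S, an enzyme of antigen-presenting cells that trims the invariant chain of MHC class II, measured 424, 360.2, 392 and 403 FPKM with DMSO and 471, 466, 475 and 450.1 FPKM with DoxSa. DMSO 2 was the lowest library, the DoxSa libraries lay close together, and the log2 fold change was 0.24 ± 0.05 (adjusted p = 0.0139). Ctsz (Entrez 64138), which encodes the carboxypeptidase cathepsin Z, measured 246.8, 221, 232 and 221 FPKM with DMSO and 247.2, 265, 272 and 256 FPKM with DoxSa. The groups did not overlap, but DMSO 1 and DoxSa 1 were nearly equal, and the log2 fold change was 0.17 ± 0.04 (adjusted p = 0.0410). The call of Ctsz was lost on leaving out a single library, whether DMSO 2 to 4 or DoxSa 2 to 4 (adjusted p of Ctsz from 0.0170 to 0.134 over the alternatives). Ctss lost its call only with no filter on low values (adjusted p = 0.0749), and its adjusted p ranged from 0.00279 to 0.0749 over the alternatives, while that of Ctsl ranged from 0.00162 to 0.0338.

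Macrophages are known to express these cathepsins strongly. Lyz2 made up most of the macrophage marker sum, so the cathepsins were also set against the 19 other markers, which summed to 2760 to 3080 FPKM with DMSO and 2985 to 3189 FPKM with DoxSa. Per FPKM of these markers, Ctsl measured 0.0769 to 0.0896 in DMSO and 0.0881 to 0.0972 in DoxSa, Ctss 0.127 to 0.144 and 0.141 to 0.158, and Ctsz 0.0752 to 0.0813 and 0.0802 to 0.0869. For all 3 cathepsins the groups overlapped on this ratio. The ratio was formed only for called genes, and it adds the spread of the markers to that of each gene. Overlap on it therefore cannot tell whether a cathepsin followed the macrophage signal. The part of the macrophage signal in the rise of the cathepsins was not tested.

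The other cysteine proteases did not pass the test. Ctsb, which encodes cathepsin B and was the most abundant of them, measured 1028, 948, 1011 and 998 FPKM with DMSO and 1077, 1036, 1102 and 1087 FPKM with DoxSa. Its groups did not overlap, with DMSO 1 just below DoxSa 2, and its log2 fold change was 0.11 ± 0.04 (adjusted p = 0.124). Ctsc, which encodes cathepsin C, the activator of serine proteases of immune cells, measured 48.5, 46.0, 48.1 and 46.8 FPKM with DMSO and 49.3, 51.9, 49.9 and 51.6 FPKM with DoxSa, again without overlap (0.09 ± 0.03, adjusted p = 0.130). Ctsh, an aminopeptidase gene, measured 76.9 ± 2.77 FPKM with DMSO and 84.3 ± 4.55 FPKM with DoxSa (adjusted p = 0.118) and passed the test without DoxSa 4 (adjusted p = 0.0456). Lgmn, which encodes legumain, a protease that processes cathepsins, measured 428 ± 23.7 FPKM and 450.4 ± 21.4 FPKM (adjusted p = 0.442). Ctsk, the gene of the collagen-cutting cathepsin K known from osteoclasts, varied most of the 9 between libraries of a group, from 120.3 FPKM in DMSO 4 to 168 FPKM in DMSO 3 and from 131 FPKM in DoxSa 1 to 169.7 FPKM in DoxSa 2. Its interval, a log2 fold change of -0.16 to 0.29, holds the estimates of both Ctsl and Ctss. Ctsf, which encodes cathepsin F, had the lowest log2 fold change of the 34: it measured 24.8, 24.4, 24.4 and 23.8 FPKM with DMSO and 20.5, 21.9, 24.6 and 22.3 FPKM with DoxSa. In 3 of 4 DoxSa libraries Ctsf lay below all DMSO libraries, its log2 fold change was -0.12 ± 0.05 (adjusted p = 0.183), and it was called lower without DoxSa 3 (adjusted p = 0.0491).

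**Figure D3:**
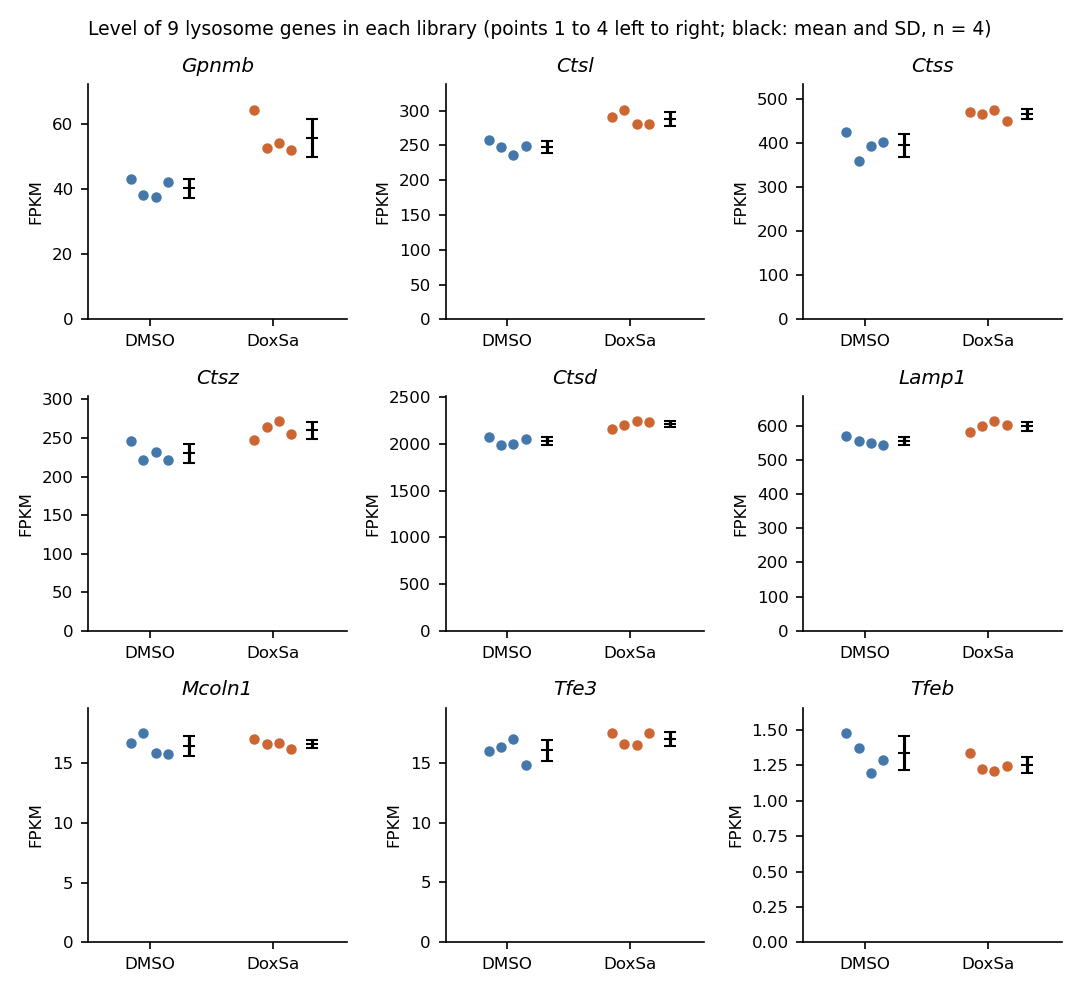
FPKM of 9 genes in each library (points, libraries 1 to 4 from left to right in each group) with the mean and SD (black, n = 4), all axes starting at 0. Gpnmb, Ctsl, Ctss and Ctsz passed the test and their groups do not overlap. Ctsd and Lamp1 also do not overlap, while Mcoln1, Tfe3 and Tfeb do.

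Among the 6 membrane proteins 1 rose, 0 fell and 5 did not pass the test. Gpnmb (Entrez 93695) encodes a transmembrane glycoprotein of lysosomes and melanosomes that marks lipid-laden macrophages. It measured 43.3, 38.2, 37.6 and 42.2 FPKM with DMSO and 64.6, 52.7, 54.3 and 52.1 FPKM with DoxSa. DoxSa 1 was well above the other DoxSa libraries, and all DoxSa libraries lay above all DMSO libraries. The log2 fold change of Gpnmb was 0.46 ± 0.07 (SE, 95% interval 0.31 to 0.61, adjusted p = 0.00344), the highest of the 34, and it stayed between 0.39 and 0.49 over the alternatives (adjusted p from 2.31e-04 to 0.0405). Per FPKM of the 19 macrophage markers, Gpnmb measured 0.0122 to 0.0151 in DMSO and 0.0164 to 0.0216 in DoxSa, and the groups were apart on this ratio. The ratio was formed only for the 4 called genes, and the summed markers had a log2 ratio of group means of 0.10. Single macrophage markers varied, with a log2 fold change of 0.36 for Cd14. The part of the macrophage signal in the rise of Gpnmb was not tested.

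Lamp1 and Lamp2 encode abundant glycoproteins that line the lysosomal membrane. Lamp1 measured 570.1, 556, 549.6 and 544 FPKM with DMSO and 581, 598, 613 and 603 FPKM with DoxSa, without overlap, and its log2 fold change was 0.11 ± 0.03 (adjusted p = 0.0785). Lamp2 measured 96.5, 91.3, 94.98 and 96.1 FPKM with DMSO and 100.1, 99.7, 98.4 and 99.1 FPKM with DoxSa, also without overlap (0.07 ± 0.03, adjusted p = 0.234). Neither was called under any of the alternatives. Cd63, a tetraspanin gene of late endosomes and exosomes, measured 339.6, 322, 352 and 349 FPKM with DMSO and 354, 379, 366 and 362 FPKM with DoxSa (0.10 ± 0.04, adjusted p = 0.164). Scarb2, which encodes the carrier of glucocerebrosidase to the lysosome, measured 38.4, 38.6, 35.8 and 40.1 FPKM with DMSO and 42.2, 40.6, 41.0 and 40.4 FPKM with DoxSa (0.10 ± 0.04, adjusted p = 0.165). In both the groups were apart by a narrow margin. Mcoln1, the gene of the lysosomal calcium channel TRPML1, measured 16.7, 17.6, 15.9 and 15.7 FPKM with DMSO and 17.03, 16.6, 16.7 and 16.2 FPKM with DoxSa. The groups of Mcoln1 overlapped, with a log2 fold change of 0.01 ± 0.04 and a 95% interval of -0.08 to 0.10, and the sign turned under quantile normalization (-0.02), under median-of-ratios scaling and without DMSO 3 or DMSO 4.

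Of the other proteases and progranulin, 0 of 4 passed the test. Ctsd, which encodes the aspartic protease cathepsin D, measured 2069, 1987, 2002 and 2057 FPKM with DMSO and 2164, 2204, 2243 and 2232 FPKM with DoxSa. The groups did not overlap, and the log2 fold change was 0.12 ± 0.03 (adjusted p = 0.0636). On recovered reads with voom, Ctsd was called (adjusted p = 0.0292). Grn, which encodes progranulin, a secreted protein that is cut into granulins in the lysosome, measured 386 ± 24.7 FPKM with DMSO and 424 ± 16.1 FPKM with DoxSa. DMSO 1, at 420.3 FPKM, lay within the range of the DoxSa libraries, and without it Grn passed the test (adjusted p = 0.0360 in place of 0.132). Ctsa, the gene of the protective protein that stabilises lysosomal sialidase and galactosidase, measured 151 ± 4.75 FPKM and 157 ± 4.44 FPKM (adjusted p = 0.400). Tpp1, a tripeptidyl peptidase gene, measured 50.0 ± 2.23 FPKM and 50.7 ± 0.977 FPKM, with an interval of -0.06 to 0.10 on the log2 scale.

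Of 6 genes of sugar-cleaving enzymes and the thioesterase Ppt1, 0 passed the test. Gusb, the gene of beta-glucuronidase, measured 16.9, 16.8, 17.7 and 15.8 FPKM with DMSO and 17.9, 18.998, 17.96 and 19.4 FPKM with DoxSa, without overlap. Its log2 fold change was 0.14 ± 0.04 (adjusted p = 0.0965), and voom called it (adjusted p = 0.0441). Neu1, the gene of lysosomal sialidase, measured 11.1 ± 0.546 FPKM and 12.0 ± 0.688 FPKM (adjusted p = 0.249). For the other hydrolase genes the log2 fold change was 0.06 for Naglu (heparan sulfate breakdown), 0.02 for Man2b1 (alpha-mannosidase), 0.01 for Ppt1 (removal of palmitate from proteins) and -0.01 for Gaa (glycogen breakdown). Their groups overlapped, and the widest 95% interval among them, that of Gaa, ran from -0.11 to 0.08.

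Genes of lysosomal lipid handling also did not pass the test, 0 of 3. Lipa encodes the acid lipase that frees cholesterol and fatty acids from lipoproteins, and Npc2 and Npc1 hand the cholesterol on to the membrane. Lipa measured 69.0, 62.9, 67.9 and 68.7 FPKM with DMSO and 72.5, 69.8, 69.8 and 69.3 FPKM with DoxSa, with groups apart by less than the spread within DMSO (0.07 ± 0.04, adjusted p = 0.353). Npc2 measured 375 ± 11.3 FPKM and 402 ± 12.9 FPKM (0.10 ± 0.04, adjusted p = 0.144), and Npc1 16.9 ± 0.986 FPKM and 18.5 ± 0.703 FPKM (0.12 ± 0.05, adjusted p = 0.158). In each of the 2, a single pair of libraries made the groups overlap.

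Of 3 proton pump subunits 0 passed the test. Atp6v0d2, the form of the d subunit known from osteoclasts and macrophages, measured 4.38, 3.27, 4.09 and 2.84 FPKM with DMSO and 5.45, 4.81, 4.26 and 4.38 FPKM with DoxSa. Its log2 fold change of 0.31 ± 0.10 was the second highest of the 34, but DMSO 1 reached the lower DoxSa libraries (adjusted p = 0.115), and without DMSO 1 it passed the test (adjusted p = 0.0477). Its widely expressed counterpart Atp6v0d1 measured 74.5 ± 3.94 FPKM and 76.1 ± 1.86 FPKM, with a log2 fold change of 0.03 and an interval of -0.06 to 0.12. Atp6v1h, a regulatory subunit gene, measured 19.1 ± 0.559 FPKM and 20.1 ± 1.06 FPKM (adjusted p = 0.408).

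None of the 3 transcription factor genes Tfeb, Tfe3 and Mitf passed the test under limma (adjusted p = 0.671, 0.360 and 0.897; 0 of 3 also at an unadjusted p under 0.05, and 0 by voom). Tfe3 was the most abundant, at 16.0, 16.3, 16.95 and 14.8 FPKM with DMSO and 17.5, 16.5, 16.5 and 17.5 FPKM with DoxSa. Mitf, known from pigment cells, mast cells and osteoclasts, measured 2.94, 2.80, 3.24 and 3.05 FPKM with DMSO and 3.01, 3.09, 3.05 and 3.04 FPKM with DoxSa. Tfeb measured 1.48, 1.38, 1.198 and 1.29 FPKM with DMSO and 1.34, 1.23, 1.21 and 1.24 FPKM with DoxSa. The groups overlapped for all 3, and the levels of the 3 genes did not overlap with each other in any library. The 95% intervals of the log2 fold change were -0.17 to 0.07 for Tfeb, -0.02 to 0.18 for Tfe3 and -0.09 to 0.12 for Mitf, so a change of RNA level by more than 0.18 on this scale lay outside all 3 intervals. For Tfeb, with 368 to 457 reads per library, the added 1 FPKM shrinks the fold change. With a pseudocount of 0.1 the log2 fold change of Tfeb was -0.08.

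Because TFEB, TFE3 and MITF share a palindromic core, CACGTG, the RefSeq promoter windows of build GRCm38.p6 were searched for it. A window runs from 250 bases before to 50 bases after a gene start, and 29 of the 34 genes matched by symbol, with 36 windows. The letters CACGTG, which read the same on both strands, stood in a window of 10 of 29 genes (34.5%), against 8.09% of all 27025 genes with a window. Those 27025 include genes too low to be tested here, and the shares were not matched for level. The longer TCACGTGA, which contains the core, stood in 4 of 29 (13.8%, against 1.13%), namely Ctsa, Ctsd, Mcoln1 and Atp6v0d1. The stretches below show 5 windows that hold the letters and, for contrast, those of 2 of the 3 called genes without the letters (Ctsz is not shown), each as the 120 bases before the start except for Ctsl, where bases 250 to 131 before the start are given. They lie, in GRCm38.p6, at chr8:3500399-3500518, plus strand (Mcoln1), chr7:142387828-142387947, minus strand (Ctsd), chr2:164833653-164833772, plus strand (Ctsa), chr8:13159041-13159160, plus strand (Lamp1), chr13:64370651-64370770, minus strand (Ctsl), chr3:95526666-95526785, plus strand (Ctss) and chr6:49036398-49036517, plus strand (Gpnmb), and are written 5′ to 3′ in the direction of the gene. Capitals mark CACGTG or TCACGTGA.
Mcoln1: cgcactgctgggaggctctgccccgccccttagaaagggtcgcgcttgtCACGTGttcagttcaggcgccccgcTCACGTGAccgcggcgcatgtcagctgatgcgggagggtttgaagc
Ctsd: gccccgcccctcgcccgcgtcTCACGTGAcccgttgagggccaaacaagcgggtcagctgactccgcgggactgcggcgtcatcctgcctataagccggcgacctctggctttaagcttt
Ctsa: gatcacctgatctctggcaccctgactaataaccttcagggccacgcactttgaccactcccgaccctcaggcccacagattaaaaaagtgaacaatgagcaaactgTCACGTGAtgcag
Lamp1: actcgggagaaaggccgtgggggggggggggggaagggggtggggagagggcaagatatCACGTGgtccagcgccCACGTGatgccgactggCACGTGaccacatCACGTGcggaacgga
Ctsl: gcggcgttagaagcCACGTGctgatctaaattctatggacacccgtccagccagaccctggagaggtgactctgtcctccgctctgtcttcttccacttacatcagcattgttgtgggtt
Ctss: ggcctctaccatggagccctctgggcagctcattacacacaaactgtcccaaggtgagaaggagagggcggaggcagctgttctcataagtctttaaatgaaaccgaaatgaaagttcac
Gpnmb: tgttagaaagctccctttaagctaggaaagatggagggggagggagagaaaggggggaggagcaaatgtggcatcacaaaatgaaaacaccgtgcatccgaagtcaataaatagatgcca

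Mcoln1 carried the core 71 and 45 bases before its start, the second within the 8 letters, and Lamp1 carried it 4 times, 61, 45, 28 and 15 bases before its start. Of the 4 called genes only Ctsl held the core, 236 bases before its start, and Ctss, Ctsz and Gpnmb held it nowhere in their windows. The 10 genes with the core had a median log2 fold change of 0.06 (1 called, 3 with groups apart), the 4 with TCACGTGA 0.04 (0 called) and the 19 without the core 0.09 (3 called, 9 with groups apart). These are descriptions of a short window: a match is not a bound site, and no match says nothing about sites elsewhere.

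**Figure D4:**
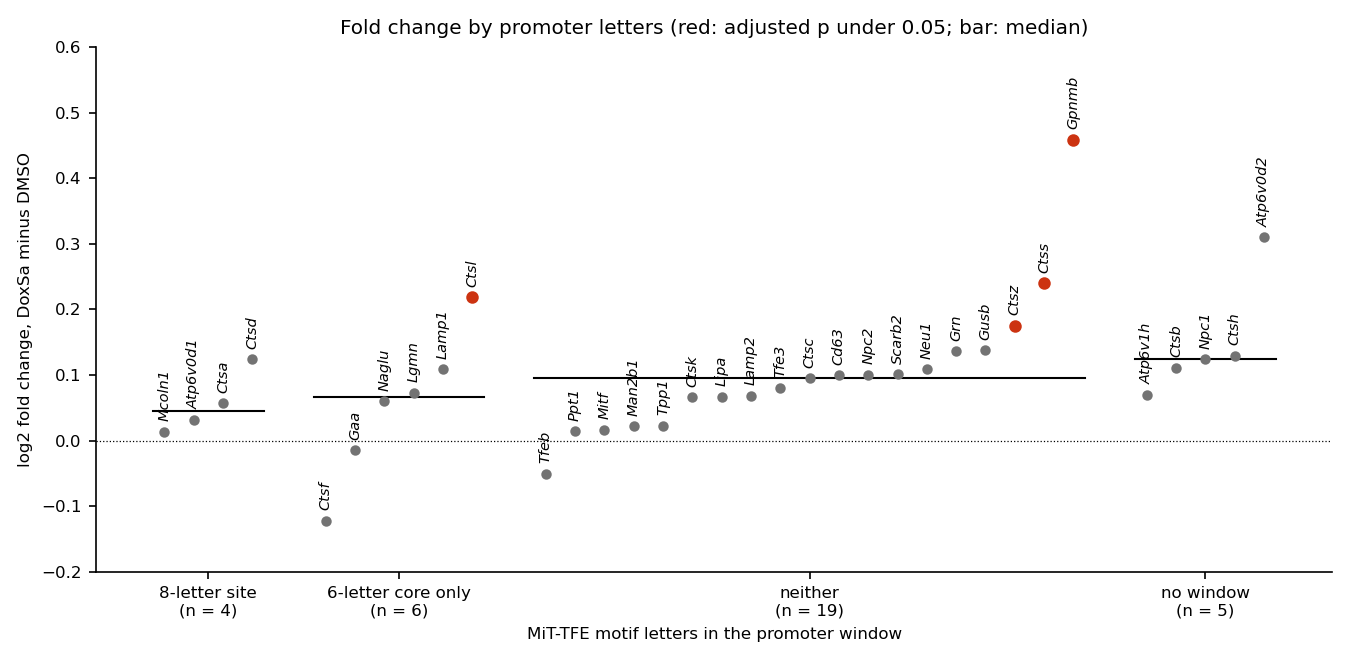
Log2 fold change of FPKM + 1 (DoxSa minus DMSO, y axis) of the 34 genes, parted by the letters in the promoter window: the 8-letter site (n = 4), the 6-letter core only (n = 6), neither (n = 19) and no window in the table (n = 5), with bars at the medians. The called genes, in red, are Ctsl with the core and Gpnmb, Ctss and Ctsz with neither.

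Other genes of the lysosome were counted from 8 lists. Of 202 tested genes 7 rose (3.47%, beside 3.88% of all tested genes) and 0 fell, with a median log2 fold change of 0.03. Among 38 membrane proteins, channels and transporters 2 rose. Slc15a3, which encodes an endolysosomal carrier of histidine and bacterial peptides, measured 9.07, 8.22, 8.40 and 8.97 FPKM with DMSO and 14.9, 14.6, 13.2 and 12.2 FPKM with DoxSa, far apart, with a log2 fold change of 0.61 ± 0.06 (adjusted p = 2.91e-04), above that of any of the 34 genes. Slc38a7, a lysosomal glutamine exporter gene, measured 6.58 ± 0.309 FPKM and 7.59 ± 0.185 FPKM (0.18 ± 0.04, adjusted p = 0.0332). Among 24 proton pump genes 2 rose, Atp6ap2, an accessory subunit gene (0.21 ± 0.04, adjusted p = 0.0142), and Atp6v0c, the gene of the proton-carrying ring subunit (0.15 ± 0.04, adjusted p = 0.0419). Of 37 sorting genes 1 rose, M6pr, which encodes the smaller mannose 6-phosphate receptor, from 107 ± 2.95 to 119 ± 3.23 FPKM (0.14 ± 0.03, adjusted p = 0.0301), while the larger receptor gene Igf2r measured 15.7 ± 0.433 and 15.1 ± 1.16 FPKM (adjusted p = 0.643).

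The lysosome damage list held 27 tested genes, of which 2 rose, the galectin genes Lgals8 (0.20 ± 0.04, adjusted p = 0.0111) and Lgals3 (0.18 ± 0.05, adjusted p = 0.0455), whose proteins bind sugars exposed on torn endosomes and lysosomes. Lgals3 is also high in macrophages. The list's median log2 fold change was 0.02. A list around the control of the TFEB family held 38 tested genes. It covers Rag GTPases and folliculin at the lysosome surface, genes acting elsewhere such as Ppp3ca and Zkscan3, and the related factor Tfec. Of the 38, 0 were called by limma (median 0.01, with 4 higher and 3 lower at an unadjusted p under 0.05). These counts are near the background, since 12.6% of all tested genes were higher and 7.24% lower at that p. Of 28 other hydrolases 0 were called (4 higher at an unadjusted p under 0.05, or 14.3%, also near that of all tested genes), of 5 other peptidases 0 (1 unadjusted) and of 5 cathepsin inhibitors 0 (2 unadjusted). Cst3, the gene of cystatin C, the main secreted inhibitor of cysteine cathepsins, measured 642 ± 31.98 FPKM with DMSO and 631 ± 16.2 FPKM with DoxSa, a log2 fold change of -0.02 with an interval of -0.12 to 0.07. The count of 7 was 3 on leaving out any 1 of DMSO 2, DoxSa 1, DoxSa 2 and DoxSa 3, 4 without DMSO 3 or DMSO 4, and 2 (Slc15a3 and Lgals8) where low genes were not filtered out. Slc15a3, Atp6ap2 and Lgals8 were called whichever library was left out, whereas Slc38a7, Atp6v0c, M6pr and Lgals3 each lost the call for 7 of the 8 libraries.

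The libraries of a group also differed among themselves across the 34 genes. DMSO 1 was the highest DMSO library for 21 of 34 genes and the lowest for 0, and DMSO 2 was the lowest for 16 and the highest for 1. In DoxSa, DoxSa 3 was the highest for 13 and DoxSa 1 the lowest for 14. The coefficient of variation within a group was under 10% in both groups for 31 of 34 genes, with a median of 4.41% in DMSO and 3.37% in DoxSa, and reached 19.6% for Atp6v0d2 in DMSO. The other 2 genes above 10% were Ctsk and Gpnmb. DMSO 1 also had the highest summed level of the 34 genes in its group, 7308 FPKM, below all DoxSa libraries (7557 to 7799 FPKM). Leaving it out gave 6 called genes of the 34 in place of 4, with Grn and Atp6v0d2 added.

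**Figure D5:**
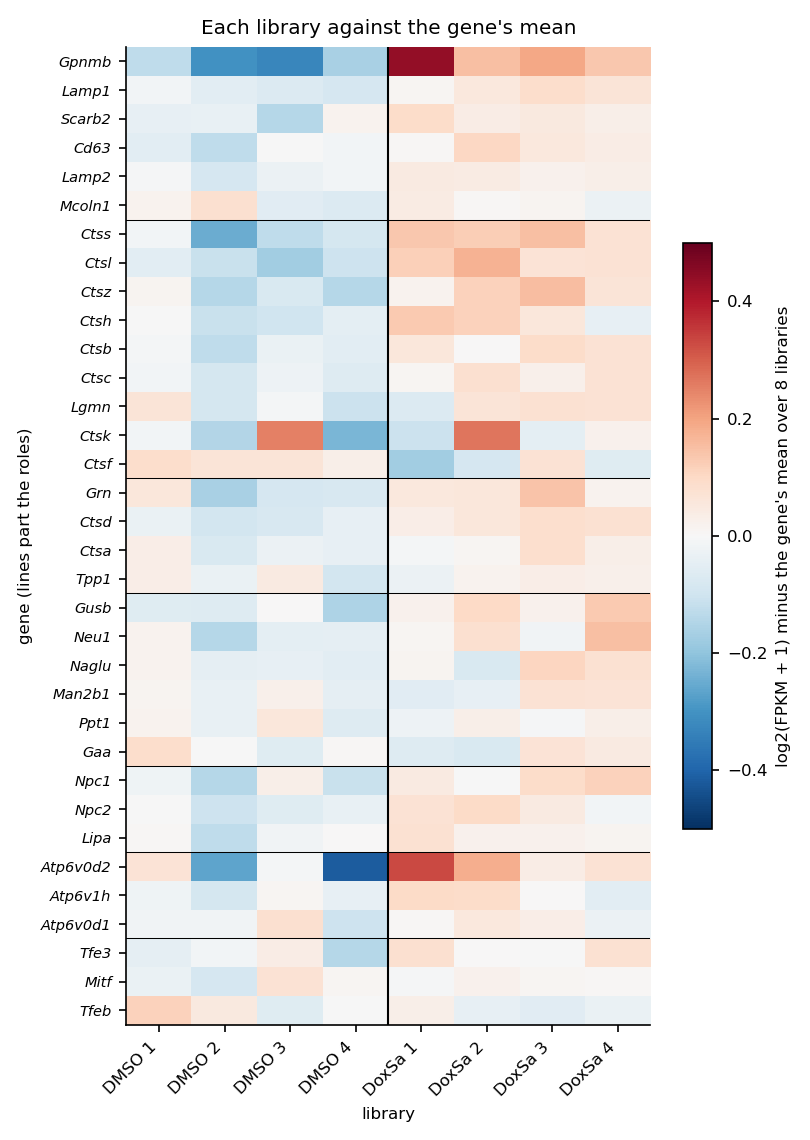
Log2(FPKM + 1) of each of the 34 genes (rows, lines part the roles) in each library (columns) minus the gene's mean over the 8 libraries, with red above and blue below the mean. Most rows turn from blue to red between DMSO and DoxSa, Gpnmb and Atp6v0d2 with the strongest colours, while Ctsk follows single libraries and Ctsf runs the other way.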

How the data were processed

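Bulk RNA sequencing of 8 libraries was used, 4 with DMSO and 4 with DoxSa, grouped by title. The submitters' processing notes name HISAT2, HTSeq and build GRCm39; versions, annotation and use of strand are not stated, so reads of an overlapping or antisense partner cannot be separated. FPKM for 22962 genes were deposited by the authors. Whole reads and library totals were recovered from the steps of these values, and 12060 of 12060 tested genes came out whole (within 0.001). limma 3.58.1 in R 4.3.3 was fitted to log2(FPKM + 1), with an intensity trend, for genes whose mean reached 0.5 FPKM. P-values were adjusted by Benjamini-Hochberg across those genes, and a gene under 0.05 was called. On simulated reads 88.9% of genes changed 1.3-fold and 5.26% of those changed 1.1-fold were called in the comparison of DoxSa with DMSO (12026 genes). The simulation changed 200 genes and gave all genes the same dispersion, so its shares may differ from those in the data. Alternatives were another pseudocount, other filters, 3 further scalings, a replicate block, each library left out in turn, and voom of limma on the recovered reads, which was added after seeing the data. Other steps used Python 3.11.15, pandas 2.3.3 and matplotlib 3.10.9.

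The 34 genes and the lists were chosen with earlier results of these data known, so they received no list test. Every gene of the 34 is named; called genes, those with groups apart and Tfeb, Tfe3, Mitf, Lamp1, Lamp2, Mcoln1 and Ctsd are given with all library values, and of each other list up to 3 called genes in each direction. For markers, summed ranges and up to 3 genes by level were to be given. Called markers, Csf1r, Krt19, Igf2r and Cst3 were named after their values were seen. Replicate libraries differed by more than sampling noise in each pair (lowest chi-square per degree of freedom 4.95). FPKM has no correction for a few abundant genes, and genes that share sequence can share reads. Promoter sequences are from RefSeq, in a table of build GRCm38.p6.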

Additional observations from a re-analysis of the deposited data

Results flagged for a closer look

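In 4 of the 68 groups of 4 libraries formed by the 34 genes, 1 library lay far from the other 3, and chance gives about 1 in 20. Lgmn measured 418 FPKM in DoxSa 1, where the other DoxSa libraries lay between 459 and 463 FPKM. Gpnmb measured 64.6 FPKM in DoxSa 1, where the others lay between 52.1 and 54.3 FPKM; without DoxSa 1 it was still called. Lipa measured 72.5 FPKM in DoxSa 1, where the others lay between 69.3 and 69.8 FPKM. Naglu measured 26.0 FPKM in DMSO 1, where the others lay between 24.7 and 24.9 FPKM. In 3 of the 4 the library was DoxSa 1.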

How the results depend on the processing

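Under 16 alternatives, the direction and call of the 34 genes were the same in 513 of 543 values. Gpnmb and Ctsl were called under all 16, Ctss under 15 and Ctsz under 7. With no filter on low values, calls over all genes came to 158 higher and 108 lower, with 2 of the 34 genes and 2 of the other lysosome genes higher. Leaving out 1 library gave 233 to 490 higher and 152 to 235 lower over all genes, 3 to 6 higher and 0 to 1 lower of the 34 genes, and 3 to 9 higher of the other lysosome genes. The other lysosome genes called higher were 4 with median-of-ratios scaling and 13 with voom, and 1 was lower with quantile normalization and with voom. The sign turned for genes near 0: with quantile normalization for Mcoln1 (-0.0222), Mitf (-0.00166), Ppt1 (-0.00682) and the median of all tested genes (-0.00622), and with median-of-ratios scaling for Mcoln1 (-0.00249), Ppt1 (-0.00278) and that median (-0.00165). With 1 library left out the values crossed 0 for Gaa (-0.0391 to 0.0122), Mcoln1 (-0.00655 to 0.0432), Mitf (-0.00863 to 0.0441), Ppt1 (-0.00485 to 0.0349), Tpp1 (-0.00426 to 0.0414) and Ctsk (-0.0113 to 0.162). The cause of these shifts was not tested.

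Libraries with the same number did not deviate together (correlations from -0.0989 to 0.0654), so the numbers were not taken as pairs. With a replicate block 3 of the 34 genes and 4 of the other lysosome genes were called higher, and Ctsz lost its call (adjusted p = 0.0869, limma). The tests planned on recovered reads, edgeR and DESeq2, were not run because the deposited unit is FPKM, and voom was added in their place after seeing the data. With 4 libraries per group, changes near 1.1-fold were mostly out of reach. The FPKM + 1 scale understates changes of Tfeb, Mitf and Atp6v0d2. The labels name no batch.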
